A study of Mus musculus with 6 samples.

Results

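The 10 clock output genes Per1, Per2, Per3, Nr1d1, Nr1d2, Dbp, Tef, Hlf, Ciart and Bhlhe41 were followed in upper first molars of newborn mice carrying a mutant Ascl5 on both alleles, on 1 allele or on neither. They were taken by gene symbol from the 2 deposited tables of 24972 genes, and all 10 were listed in both. Maxillary first molars were collected at postnatal day 1 from Ascl5Mut/Mut, Ascl5Mut/WT and Ascl5WT/WT mice, with 2 libraries per genotype and 6 in all. Ascl5 codes for a transcription factor of the basic helix-loop-helix class, and the series title calls the effect of the variant a potential gain of function. Ascl5 itself was at 0 in all 6 libraries, so its level does not check the genotype labels. The labels used here give neither the sequence change nor the strain, the number of animals or teeth per library, or the hour of collection. The replicates are separate samples by their labels, so p-values measure only the spread between these samples, which may in part be technical.

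The circadian clock is a transcription feedback loop that runs in most cells. CLOCK and BMAL1 (encoded by Arntl) bind E-box sequences and switch on the Per, Nr1d, Dbp and Ciart genes, among others, and PER proteins then return with CRY to block CLOCK and BMAL1. Levels of these genes swing over the day, and enamel and dentin carry daily growth lines.

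Expression is given as normalized counts, scaled by the authors within each table of 4 libraries. Low values clustered at multiples of 108.8 to 139.8, the worth of about 1 read, which gave an estimated 90476 to 117143 counted reads per library. These depths are estimates, and counting error alone is covered by the limit that a count of 0 allows. For a gene listed at 0, the 95% upper limit of the expected count is about 3 reads, or 326 to 419 normalized counts. Only 29% to 33.4% of genes were above 0 per library, and 21 of 76 ribosomal protein genes, which every cell uses, were at 0 in at least 1 library. The Ascl5WT/WT libraries occur in both tables, and the values of 1 table are set only against each other.

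The promoters were read for exact matches to clock elements just before each start. For 9 of the 10 genes (all but Per2), RefSeq sequence on GRCm38.p6 was at hand, and the 250 bases before each start were searched on both strands for the E-box CACGTG, the D-box TTATGTAA, to which DBP, TEF and HLF proteins bind, the cAMP response element TGACGTCA and the ROR half-site AGGTCA. None of these motifs contains another. The E-box stood in 4 of the 9 genes (Bhlhe41, Ciart, Per1 and Tef), against 6.02% of 32851 promoters of that length. The 9 genes held 11 promoters, 2 each for Per1 and Tef, so counts by gene and shares by promoter are unlike measures. Tef had the E-box before both starts and Per1 before 1. The D-box stood in Per3 alone of the 9, against 0.82% of all promoters. The response element stood in Hlf alone, against 1.55%, and the ROR half-site in Nr1d2 and Per1, against 14.02%. A match describes the letters only. A gene without a match in these 250 bases may carry the element elsewhere or in other letters. Dbp and Nr1d1 had no match to any of these motifs. The promoters of Ciart and Hlf are printed because these genes differed most between genotypes, and those of Per1 and Per3 because they carry the other motifs (for Per1, the first of its 2 listed starts). Each runs 5′ to 3′ on the strand of its gene and ends at the base before the start, with motifs in capitals.
Ciart, chr3:95882229-95882478, minus strand, 3 E-boxes: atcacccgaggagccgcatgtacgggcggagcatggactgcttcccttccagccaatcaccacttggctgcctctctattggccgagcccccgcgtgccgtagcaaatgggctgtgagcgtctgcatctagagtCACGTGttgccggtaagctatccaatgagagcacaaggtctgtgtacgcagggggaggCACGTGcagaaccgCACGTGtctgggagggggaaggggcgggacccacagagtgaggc
Hlf, chr11:90390918-90391167, minus strand, 1 cAMP response element: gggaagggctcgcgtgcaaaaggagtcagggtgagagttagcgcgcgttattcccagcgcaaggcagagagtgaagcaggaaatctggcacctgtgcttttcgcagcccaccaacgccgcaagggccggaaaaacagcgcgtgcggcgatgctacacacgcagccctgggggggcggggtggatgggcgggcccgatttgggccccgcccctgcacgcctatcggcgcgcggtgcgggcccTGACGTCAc
Per1, chr11:69098699-69098948, plus strand, 1 E-box and 1 reversed ROR half-site: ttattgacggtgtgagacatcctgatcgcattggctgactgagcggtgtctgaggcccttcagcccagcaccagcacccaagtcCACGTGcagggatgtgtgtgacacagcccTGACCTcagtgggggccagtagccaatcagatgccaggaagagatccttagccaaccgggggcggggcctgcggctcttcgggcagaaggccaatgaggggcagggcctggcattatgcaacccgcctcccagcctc
Per3, chr4:151044666-151044915, minus strand, 2 D-boxes: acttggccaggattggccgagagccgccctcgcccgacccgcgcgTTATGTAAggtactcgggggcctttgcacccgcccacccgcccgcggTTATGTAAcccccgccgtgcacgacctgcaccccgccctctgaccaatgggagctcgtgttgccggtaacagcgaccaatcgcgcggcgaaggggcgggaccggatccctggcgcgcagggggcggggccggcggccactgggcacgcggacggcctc

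As a sum, the 10 genes stood higher in mutant than in wild-type molars, on few reads. The sum was 4179 and 4015 normalized counts for Ascl5Mut/Mut replicates 1 and 2, against 847 and 2915 for Ascl5WT/WT of the same table. It was 5944 and 6396 for Ascl5Mut/WT, against 873 and 3048 for Ascl5WT/WT. In estimated reads this was 30 and 30 in Ascl5Mut/Mut and 47 and 47 in Ascl5Mut/WT, against 8 and 24 in Ascl5WT/WT. The groups did not overlap in either table, but the Ascl5WT/WT libraries differed between themselves more than the libraries of either mutant genotype did. The ratio of mean sums was 2.18 for Ascl5Mut/Mut, with 1.41 when Ascl5WT/WT replicate 1 was left out and 4.83 without replicate 2. For Ascl5Mut/WT it was 3.15, with 2.02 and 7.07 without Ascl5WT/WT replicate 1 and replicate 2. No test was made of the sum. These genes swing over the day and the hour of collection is not labelled, so hour and genotype cannot be told apart here. The same holds for each gene below. Hlf, Nr1d1 and Per2 held most of the sum in Ascl5Mut/Mut, though in replicate 2 Per2 (279) lay below Dbp (442), Per3 (412) and Nr1d2 (404). In Ascl5Mut/WT, Ciart and Dbp held most of it in replicate 1, and Ciart, Nr1d1 and Per2 were the highest in replicate 2.

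**Figure D1:**
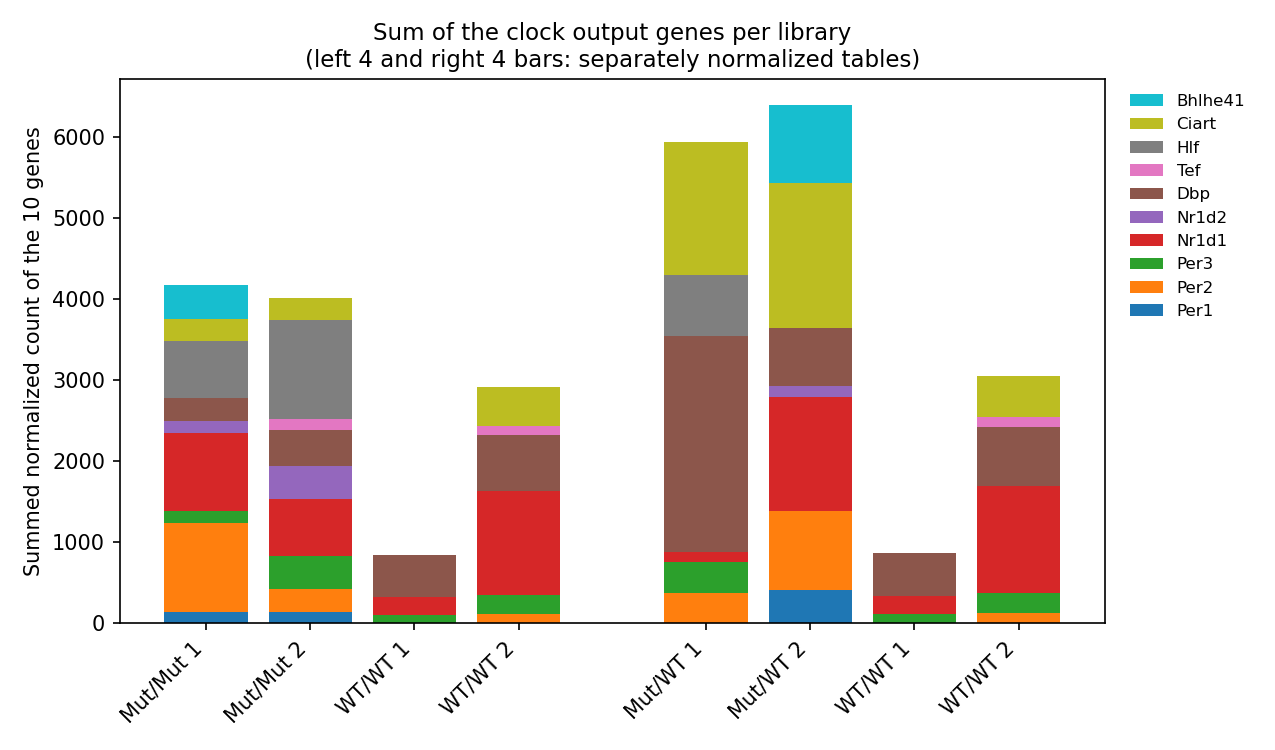
Sum of the normalized counts of the 10 clock output genes (y axis) in each library (x axis), stacked by gene, with the Ascl5Mut/Mut table in the left 4 bars and the Ascl5Mut/WT table in the right 4. The mutant sums of 4015 to 6396 all lie above the wild-type sums of 847 to 3048, and Ascl5WT/WT replicate 1 is the lowest.

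Among the 10 genes, 9 were above 0 in each Ascl5Mut/Mut library, and 6 and 7 in Ascl5Mut/WT, against 3 and 6 in Ascl5WT/WT. Of all genes, 33.2% and 29% were above 0 in Ascl5Mut/Mut and 32.6% and 33.4% in Ascl5Mut/WT, against 32.8% and 31.4% in Ascl5WT/WT. Estimated depth was 92316 and 90476 counted reads in Ascl5Mut/Mut, against 117047 and 104767 in Ascl5WT/WT. It was 103346 and 95599 in Ascl5Mut/WT, against 117143 and 105029. The part of depth in these counts was not tested. No gene of the 10 passed the test. The test was limma on log2(normalized count + 120), two-sided, adjusted by Benjamini-Hochberg over all genes averaging 1000 or more over the 4 libraries of a table. It called 20 of 2336 genes (0.856%) for Ascl5Mut/Mut and 13 of 2370 (0.549%) for Ascl5Mut/WT. Of the same genes, 11.2% for Ascl5Mut/Mut and 8.73% for Ascl5Mut/WT had an unadjusted p under 0.05. That filter left 0 of the 10 genes for Ascl5Mut/Mut and 1, Dbp, for Ascl5Mut/WT. With the minimum mean lowered to 10, all 10 were tested and limma again called 0 in either comparison, against 0.00785% of 12731 genes and 0.0949% of 12644. At an unadjusted p under 0.05, 1 of 10 stood in each comparison (Hlf for Ascl5Mut/Mut, Ciart for Ascl5Mut/WT), against 4.45% and 3.97% of all genes. Differences of single genes below are on the log2(normalized count + 120) scale, which understates the change of low genes, and their SE and p-values come from this wider fit unless the minimum mean of 1000 is named.

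In Ascl5Mut/Mut, both libraries lay above both Ascl5WT/WT libraries for 4 of the 10 genes (Per1, Per2, Nr1d2 and Hlf), against 13.3% of all genes that averaged 10 or more, and below them for 1 (Dbp), against 13.5%. In Ascl5Mut/WT, both libraries lay above for 2 (Per2 and Ciart), against 14.5%, and below for 0, against 11.8%. Without Ascl5WT/WT replicate 2 the count above was 7 for Ascl5Mut/Mut, and without Ascl5WT/WT replicate 1 the count below was 3. Without Ascl5Mut/WT replicate 1 or replicate 2 the count above was 6 and 5 for Ascl5Mut/WT, with 1 below each time. Without Ascl5WT/WT replicate 1, 1 gene lay below there too. The median difference over the 10 genes stood at 0.83 for Ascl5Mut/Mut and at 1.05 for Ascl5Mut/WT, against 0.01 and 0.05 over all genes tested. With genes at 0 in both libraries of a group set to 3 reads per library, and any difference this reversed set to 0, it was 0.22 and 0.00.

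**Figure D2:**
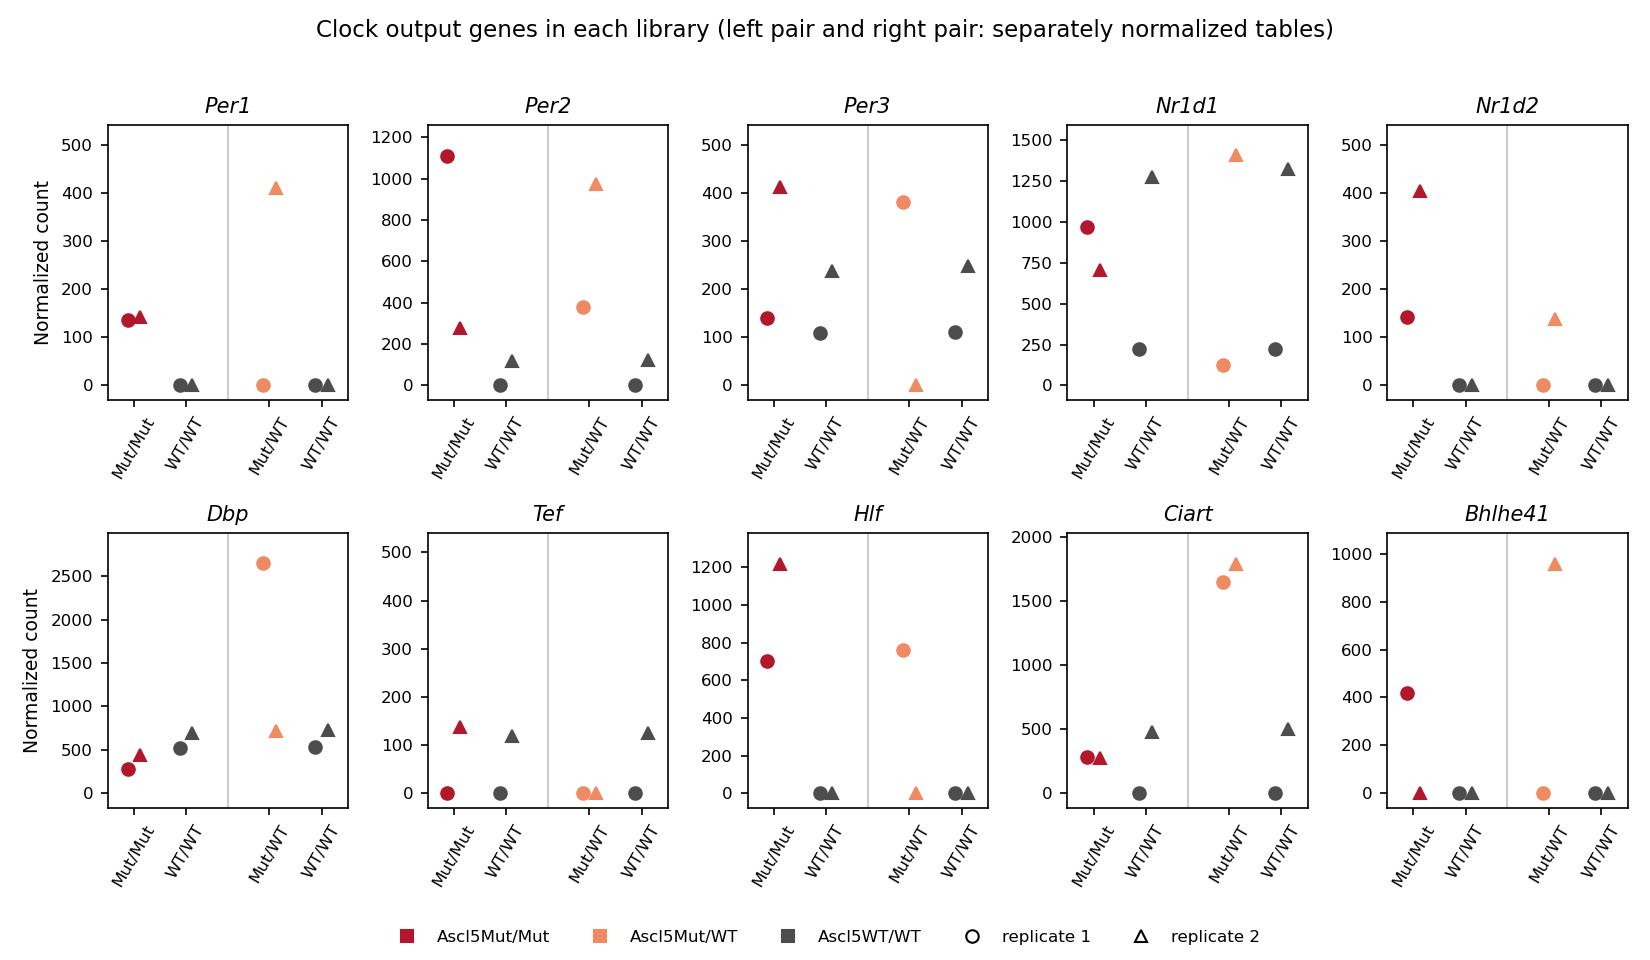
Normalized count (y axis, linear, own scale per gene) of each clock output gene by genotype (x axis), with each library as 1 point, circles for replicate 1 and triangles for replicate 2. The left pair of groups in a panel is the Ascl5Mut/Mut table and the right pair the Ascl5Mut/WT table, and the highest single value is that of Dbp, 2655 in Ascl5Mut/WT replicate 1.

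The period genes encode the PER proteins that block CLOCK and BMAL1. Per2 (chr1:91415982-91459324, minus strand) had 1109 and 279 normalized counts in Ascl5Mut/Mut, against 0 and 118 in Ascl5WT/WT. It had 379 and 974 in Ascl5Mut/WT, against 0 and 123 in Ascl5WT/WT. Both mutant genotypes lay above wild type in every library, and 2 to 8 estimated reads stood behind each mutant value, against 0 or 1 in Ascl5WT/WT. The difference was 2.05 (SE 1.13, limma adjusted p = 0.709) for Ascl5Mut/Mut and 2.11 (SE 1.19, limma adjusted p = 0.77) for Ascl5Mut/WT. The Ascl5Mut/Mut difference was 1.24 without Ascl5Mut/Mut replicate 1 and 2.86 without replicate 2. Per1 (chr11:69095217-69109960, plus strand), the member of the family that also answers quickly to glucocorticoid and cAMP signals, had 135 and 141 in Ascl5Mut/Mut, about 1 read each, against 0 and 0 in Ascl5WT/WT. In Ascl5Mut/WT it had 0 and 410, against 0 and 0. Per3 (chr4:151003652-151044665, minus strand), a PER protein that the loop can run without, had 140 and 412 in Ascl5Mut/Mut, against 109 and 238 in Ascl5WT/WT. In Ascl5Mut/WT it had 381 and 0, against 111 and 248. The groups overlapped for Per3 in both tables.

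The nuclear receptors REV-ERB alpha and beta, encoded by Nr1d1 and Nr1d2, repress Arntl through ROR sites. Nr1d1 (chr11:98767932-98775333, minus strand) had 967 and 705 normalized counts in Ascl5Mut/Mut, against 221 and 1275 in Ascl5WT/WT. In Ascl5Mut/WT it had 126 and 1410, against 224 and 1323. The Ascl5Mut/Mut libraries lay between those of Ascl5WT/WT, which were far apart, as were those of Ascl5Mut/WT, with a mean of 836 ± 186 in Ascl5Mut/Mut against 748 ± 746 in Ascl5WT/WT, and of 768 ± 908 in Ascl5Mut/WT against 774 ± 777 (SD, n = 2 each). Nr1d1 was 1 of 3 genes of the 10, with Dbp and Per3, above 0 in both Ascl5WT/WT libraries. Nr1d2 (chr14:18204054-18239127, minus strand) had 141 and 404 in Ascl5Mut/Mut and 0 and 137 in Ascl5Mut/WT, against 0 in both Ascl5WT/WT libraries of either table. These are at most 3 estimated reads, and no fold is given. Arntl, the target of both receptors, had 0 and 0 in Ascl5Mut/Mut, against 327 and 0 in Ascl5WT/WT, and had 132 and 421 in Ascl5Mut/WT, against 312 and 0.

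DBP, TEF and HLF are related leucine zipper factors that carry the clock's rhythm to D-box genes, many of them in metabolism. The 3 genes did not move alike. Hlf (chr11:90336536-90390895, minus strand) had 704 and 1218 normalized counts in Ascl5Mut/Mut, 5 and 9 estimated reads, against 0 and 0 in Ascl5WT/WT. Its mean in Ascl5Mut/Mut was 2.80-fold that of 3 reads per Ascl5WT/WT library. This ratio leaves out the counting error of the Ascl5Mut/Mut reads. The difference was 3.13 (SE 1.02, limma unadjusted p = 0.0182, adjusted p = 0.709), above the range from -1.82 (5%) to 1.90 (95%) of all genes. In Ascl5Mut/WT, Hlf had 760 and 0, against 0 and 0, so replicate 1 alone carried it. Dbp (chr7:45705088-45710203, plus strand) had 284 and 442 in Ascl5Mut/Mut, against 518 and 690 in Ascl5WT/WT, and was the only gene of the 10 with both Ascl5Mut/Mut libraries below both of Ascl5WT/WT (difference -0.59, SE 0.89, limma adjusted p = 0.767). In Ascl5Mut/WT, Dbp had 2655 and 719, against 538 and 733. Replicate 1, with 20.9 estimated reads, held the highest value of any of the 10 genes, while replicate 2 lay between the Ascl5WT/WT libraries. Dbp passed the minimum mean of 1000 through that library, and its difference there was 1.03 (SE 1.02, limma adjusted p = 0.768 at the minimum mean of 1000), with 0.16 without that library. Tef (chr15:81802421-81826863, plus strand) had 0 and 137 in Ascl5Mut/Mut, against 0 and 119 in Ascl5WT/WT, and 0 and 0 in Ascl5Mut/WT, against 0 and 125, so it never exceeded about 1 read.

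Ciart and Bhlhe41 encode repressors of CLOCK and BMAL1. Ciart, also called Chrono (chr3:95878503-95882251, minus strand), had 1643 and 1787 normalized counts in Ascl5Mut/WT, against 0 and 497 in Ascl5WT/WT. Both Ascl5Mut/WT libraries rested on about 13 estimated reads and lay close together, above both Ascl5WT/WT libraries. The difference was 2.75 (SE 0.99, limma unadjusted p = 0.0111, adjusted p = 0.77), above the range from -1.60 (5%) to 1.74 (95%) of all genes. Without Ascl5WT/WT replicate 1 it was 1.57, inside that range, and without replicate 2 it was 3.93. In Ascl5Mut/Mut, Ciart had 279 and 277, against 0 and 475, between the Ascl5WT/WT libraries. Per kilobase of exon, the Ascl5Mut/WT mean was 758.6 normalized counts for Ciart, 563.8 for Dbp and 249.7 for Nr1d1. Replicates 1 and 2 had 726.6 and 790.6 for Ciart, 887.2 and 240.4 for Dbp and 41.0 and 458.4 for Nr1d1. The order of the genes thus differed between the replicates. Bhlhe41 (chr6:145858243-145865558, minus strand), whose DEC2 protein binds E-boxes itself, had 420 and 0 in Ascl5Mut/Mut and 0 and 958 in Ascl5Mut/WT, against 0 in both Ascl5WT/WT libraries of either table. In each mutant genotype 1 library alone carried it.

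**Figure D3:**
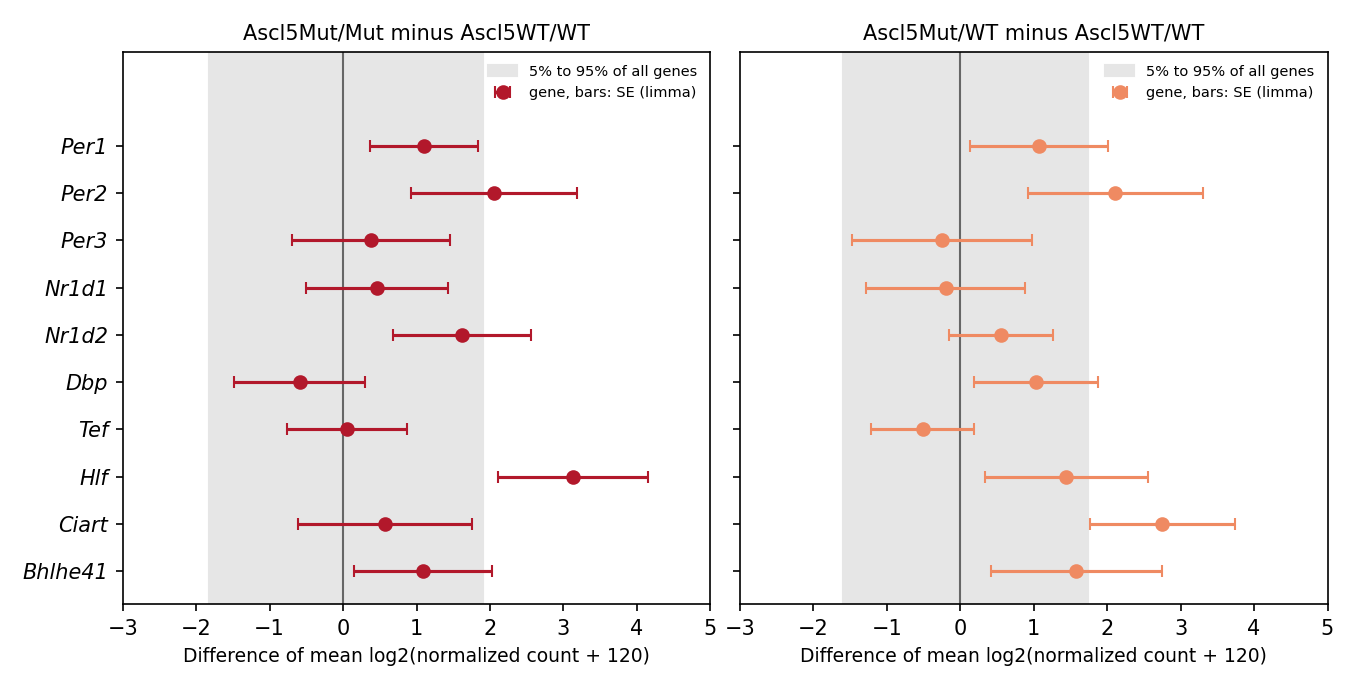
Difference between mutant and wild-type means of log2(normalized count + 120) for each clock output gene (points, with SE from limma as bars), for Ascl5Mut/Mut on the left and Ascl5Mut/WT on the right. The grey band runs from the 5% to the 95% point of all genes with a mean of at least 10. Hlf at 3.13 lies farthest out on the left and Ciart at 2.75 on the right.

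Other genes of the clock and genes induced by glucocorticoids or acute stimuli were measured through 54 genes in 6 lists, and limma called 0 of them in either comparison, with the minimum mean at 1000 (4 tested in each) or at 10 (44 tested for Ascl5Mut/Mut and 41 for Ascl5Mut/WT). At an unadjusted p under 0.05, 1 gene stood in each comparison of the wider fit, against 4.45% and 3.97% of all genes. These were Usp2 for Ascl5Mut/Mut and Clock for Ascl5Mut/WT. Of the activators and ROR receptors, Clock was by far the most counted, with 12594 and 11780 normalized counts in Ascl5Mut/Mut, against 15813 and 12005 in Ascl5WT/WT. In Ascl5Mut/WT it had 20381 and 35465, against 16004 and 12427 (difference 0.93, SE 0.36, limma adjusted p = 0.397 at the minimum mean of 1000). Without Ascl5Mut/WT replicate 2 that difference was 0.53. Rora had 275 and 0 in Ascl5Mut/Mut, against 762 and 613, and 292 and 1461 in Ascl5Mut/WT, against 598 and 492. Rorb was at 0 in 1 or more libraries of each genotype. The list's median difference stood at -0.18 for Ascl5Mut/Mut and at 0.49 for Ascl5Mut/WT.

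Other repressors differed between libraries of 1 genotype or stayed low. Cry2, whose protein partners PER, had 140 and 0 normalized counts in Ascl5Mut/Mut, against 1318 and 119 in Ascl5WT/WT, so Ascl5WT/WT replicate 1 alone was high, and Ascl5Mut/WT did not exceed 279. Cry1 did not exceed 275 in any library. Timeless had 0 and 417 in Ascl5Mut/Mut, against 548 and 584, and 1386 and 140 in Ascl5Mut/WT, against 558 and 609. Bhlhe40, the close relative of Bhlhe41, had 281 and 0 in Ascl5Mut/Mut and 0 and 410 in Ascl5Mut/WT, against 0 in both Ascl5WT/WT libraries of either table. It was thus above 0 in the same libraries as Bhlhe41. Nfil3, which competes with DBP at D-boxes, was listed at 0 in all 6 libraries. Among 13 genes of PER and CRY turnover, the phosphatase gene Ppp1ca had 3196 and 1232 in Ascl5Mut/Mut, against 4617 and 3451 (difference -0.96, SE 0.61, limma adjusted p = 0.579 at the minimum mean of 1000), and 2518 and 1494 in Ascl5Mut/WT, against 4715 and 3605 (-1.04, SE 0.54, limma adjusted p = 0.59, also at 1000). Csnk1a1 had 1250 and 134 in Ascl5Mut/Mut, against 1630 and 1232, and 2604 and 1346 in Ascl5Mut/WT, against 1666 and 1288. Ppp1cb and Skp1a, also among the most counted of that list, overlapped between the groups in both tables.

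Of 12 clock-controlled genes of many organs, 3 were higher in mean and 6 lower in Ascl5Mut/Mut, and 4 higher and 4 lower in Ascl5Mut/WT. Usp2, a deubiquitinase with a strong daily rhythm in many organs, had 560 and 815 normalized counts in Ascl5Mut/Mut and 380 and 274 in Ascl5Mut/WT, against 0 and 0 in Ascl5WT/WT of either table. Wee1, a kinase that holds back mitosis, had 422 and 555 in Ascl5Mut/Mut, against 744 and 722, and 243 and 1794 in Ascl5Mut/WT, against 776 and 770. Noct and Por, also among the most counted, overlapped between the groups in the Ascl5Mut/WT table, and Por had 0 and 422 in Ascl5Mut/Mut, against 544 and 697. Per1 and Per2 also answer to glucocorticoids and to acute stimuli, so genes of both kinds were counted. Of 8 glucocorticoid-induced genes, 3 were higher in mean in Ascl5Mut/Mut and 4 lower. In Ascl5Mut/WT, 4 were higher and 2 lower. Of 12 immediate-early genes, 5 were higher and 4 lower in Ascl5Mut/Mut, and 7 higher and 2 lower in Ascl5Mut/WT. Fos had 684 and 693 in Ascl5Mut/Mut, against 220 and 239, and 879 and 415 in Ascl5Mut/WT, against 223 and 247, without overlap (limma adjusted p = 0.709 and 0.77). Egr2 had 1241 and 559 in Ascl5Mut/Mut, against 0 and 356 without overlap, and overlapped in the Ascl5Mut/WT table. Jun had 425 and 0 in Ascl5Mut/Mut, against 431 and 1079, and so lay below both Ascl5WT/WT libraries, and it overlapped in the Ascl5Mut/WT table. Errfi1, Fkbp5, Dusp1 and Zbtb16 were the most counted glucocorticoid-induced genes, and Zbtb16 was listed at 0 in all 4 mutant libraries, against 220 and 1072 in Ascl5WT/WT beside Ascl5Mut/Mut and 223 and 1113 beside Ascl5Mut/WT.

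Reads of some of these genes may belong to a gene on the other strand, since the strand setting of the counting is not given in the sources used here. In GENCODE M21 on GRCm38, exons of Nr1d1 share 263 bases with Thra, and those of Dbp 539 bases with Sphk2. Exons of Tef share 193 bases with Gm17597, and those of Bhlhe41 1280 bases with Gm43909. Gm43909 is not among the genes listed in both tables, so no value of it stands beside Bhlhe41. Ciart lies inside the span of C920021L13Rik without sharing an exon base. Sphk2, a sphingosine kinase, had 5503 and 9528 normalized counts in Ascl5Mut/Mut, against 7473 and 5286 in Ascl5WT/WT, and 7327 and 8953 in Ascl5Mut/WT, against 7555 and 5467, all above Dbp in the same library. The library with the high Dbp value, Ascl5Mut/WT replicate 1, was below the other Ascl5Mut/WT library in Sphk2. C920021L13Rik had 3212 and 2529 in Ascl5Mut/Mut, against 1110 and 845 (difference 1.45, SE 0.65, limma adjusted p = 0.446 at the minimum mean of 1000), and 4251 and 1470 in Ascl5Mut/WT, against 1133 and 883 (1.23, SE 0.69, limma adjusted p = 0.594, also at 1000). Its groups did not overlap in either table, whereas those of Ciart overlapped in the Ascl5Mut/Mut table. Thra, a thyroid hormone receptor, had 417 and 864 in Ascl5Mut/Mut, against 859 and 810, and 506 and 428 in Ascl5Mut/WT, against 877 and 846. Gm17597 stayed at or below 228 in every library. The part of the other strand in the values of the clock output genes was not tested.

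**Figure D4:**
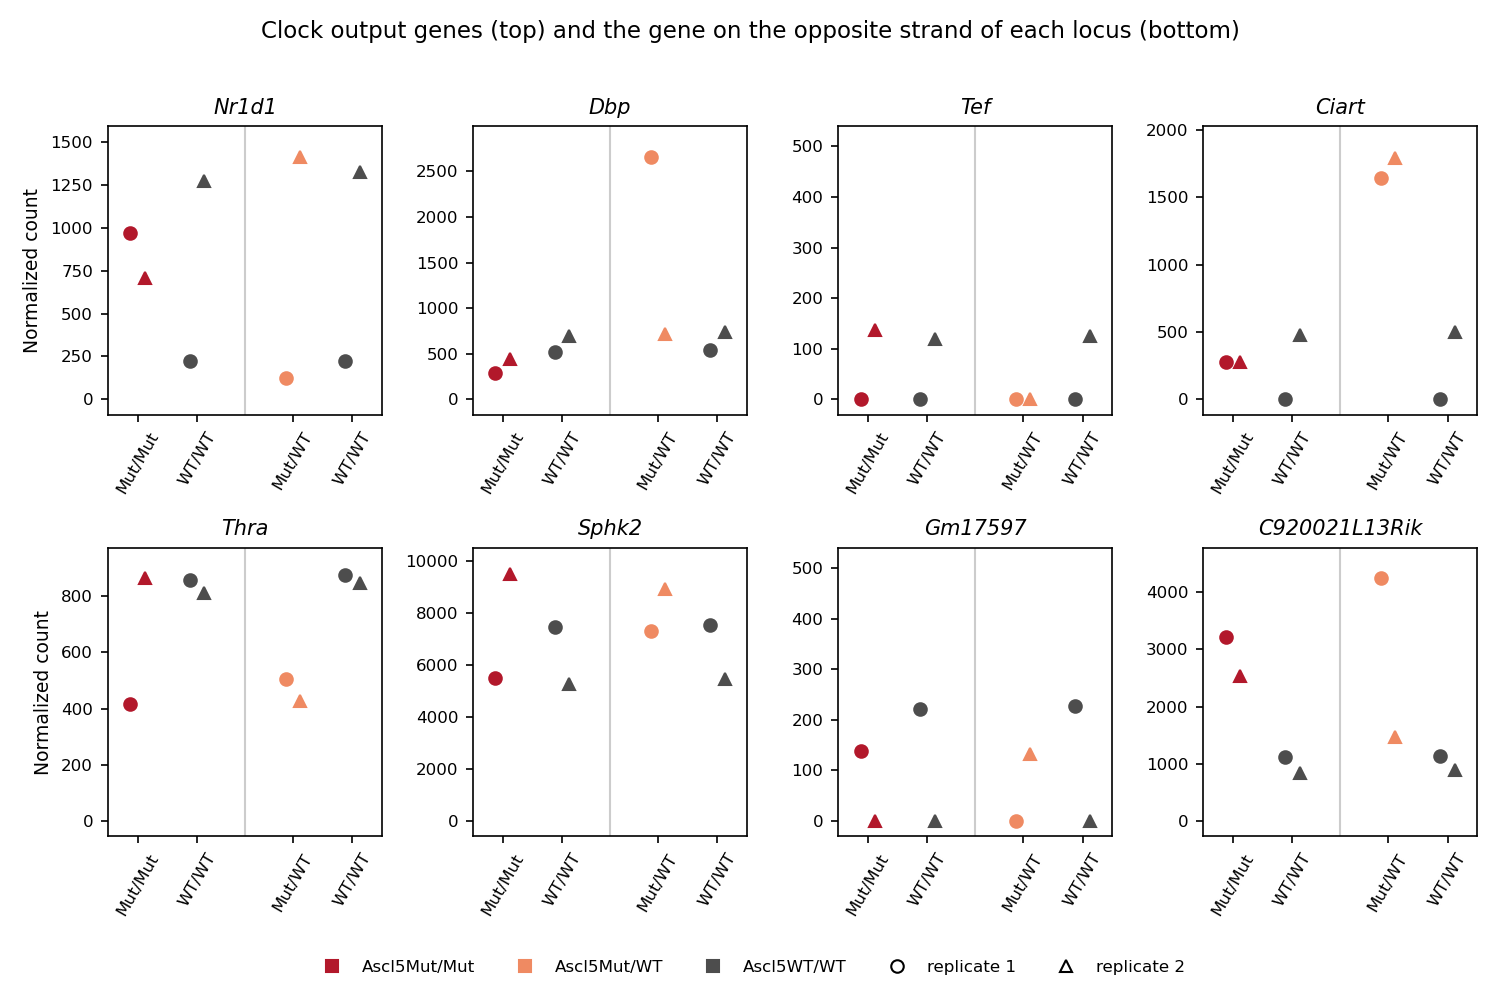
Normalized counts (y axis, linear, own scale per gene) of 4 clock output genes (top row) and of the gene on the opposite strand of each locus (bottom row), by genotype (x axis), with each library as 1 point. Sphk2 lies between 5286 and 9528 in all libraries, and C920021L13Rik is higher in mutant than in wild-type libraries in both tables.

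The makeup of the molars differed between libraries beside these values, and in whole teeth fewer cells of a type and less RNA per cell cannot be told apart. Of 11 dental epithelium markers, 1 was higher in mean and 9 lower in Ascl5Mut/Mut, with sums of 8655 and 29512, against 42959 and 32302. Without overlap, 4 of the 11 were lower there, against 13.5% of all genes that averaged 10 or more, and 0 higher, against 13.3%. In Ascl5Mut/WT, 6 were higher and 5 lower, with sums of 23174 and 59126, against 43693 and 33887. Shh, the hedgehog ligand, had 0 and 0 in Ascl5Mut/Mut, against 2146 and 1340, and the epithelial factor gene Trp63 had 1049 and 5829, against 21134 and 13756. Krt14 was above 0 in every library. Amelx was at 0 in all but 1 library. Of 12 dental mesenchyme and odontoblast markers, 5 were higher and 6 lower in Ascl5Mut/Mut, and 6 higher and 5 lower in Ascl5Mut/WT. At the minimum mean of 1000, limma called the homeobox gene Dlx1, which had 2348 and 556 in Ascl5Mut/Mut, against 47224 and 53336, and 4658 and 2064 in Ascl5Mut/WT, against 48116 and 55586. It also called Dspp, which encodes a dentin matrix protein, with 14045 and 8122 in Ascl5Mut/WT, against 336 and 0, while Ascl5Mut/Mut had 0 and 0, against 327 and 0. These calls of Dlx1 and Dspp were lost without either library of the mutant genotype. All 8 oral mucosa markers were higher in mean in both mutant genotypes, with sums of 19389 and 127997 in Ascl5Mut/Mut, against 219 and 540, and 14446 and 49207 in Ascl5Mut/WT, against 222 and 562. Krt76, Krt16, Sprr3, Krtdap and Rptn were at 0 in both Ascl5WT/WT libraries. Without overlap, 8 of the oral mucosa markers were higher in Ascl5Mut/Mut and 6 in Ascl5Mut/WT, against 13.3% and 14.5% of all genes. At the minimum mean of 1000, limma called 3 of 6 tested higher for Ascl5Mut/Mut and 2 of 5 for Ascl5Mut/WT. Bone and osteoclast markers were higher in mean for 6 of 8, with sums of 40558 and 31097 in Ascl5Mut/Mut, against 2382 and 7230, and 26390 and 9300 in Ascl5Mut/WT, against 2481 and 7550. Without overlap, 5 were higher and 1 lower in Ascl5Mut/Mut (13.3% and 13.5% of all genes), and 4 and 0 in Ascl5Mut/WT (14.5% and 11.8%). At the minimum mean of 1000, limma called 1 of 4 tested higher for Ascl5Mut/Mut and 0 of 2 for Ascl5Mut/WT. All these marker calls had the limit given for Dlx1 and Dspp. Without an intensity trend limma called 0 genes in either comparison. With the minimum mean at 10 it called 0 of these markers for Ascl5Mut/Mut. For Ascl5Mut/WT it then called 2 dental mesenchyme and odontoblast markers and 2 oral mucosa markers. Skeletal muscle markers summed to 87801 and 4408 in Ascl5Mut/Mut, against 543 and 10268, and to 23135 and 6621 in Ascl5Mut/WT, against 553 and 10765. Ascl5Mut/Mut replicates 1 and 2, far apart in muscle markers, had nearly equal clock output sums of 4179 and 4015. Ascl5WT/WT replicate 1 was the lowest in both sums. Erythroid markers summed to 5224 and 3006 in Ascl5Mut/Mut, against 787 and 23656, and to 1390 and 3019 in Ascl5Mut/WT, against 801 and 24616, with Hbb-bs at 0 in all 6 libraries. Sums of endothelium markers were 1997 and 1538 in Ascl5Mut/Mut, against 486 and 839, and 1296 and 977 in Ascl5Mut/WT, against 467 and 850. Those of myeloid markers were 2373 and 2613 in Ascl5Mut/Mut, against 1754 and 596, and 256 and 2588 in Ascl5Mut/WT, against 1801 and 618. Those of nerve and glia markers were 4059 and 1797 in Ascl5Mut/Mut, against 2763 and 3558, and 1886 and 2025 in Ascl5Mut/WT, against 2805 and 3663. The part of tissue makeup in the clock output values was not tested.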

How the data were processed

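RNA from maxillary first molars was sequenced from libraries made with a stranded kit, per the labels' protocols. The authors deposited 2 tables of 4 libraries, whose linear signal is a normalized count per gene. Per the submitters' processing notes, mm10 and DESeq2 were used, with no version given, and the design text names an Illumina program. Aligner, annotation and strand setting were not given in the sources used here, and 1 batch is labelled for all libraries. Columns were matched to samples by library number.

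The members and lists were chosen with earlier results of these data known. Per library, 83.9% to 93.5% of values up to 5 steps came within 0.1 of a whole step, too few to recover reads, so no count model was run. Mutants were set against Ascl5WT/WT within a table by limma 3.58.1 in R 4.3.3, with an intensity trend, on log2(value + 120) for genes averaging 1000 or more, and Benjamini-Hochberg adjusted p-values under 0.05 were calls. The pseudocount is about 1 read. It and the filter came from earlier work on these data, where they were chosen after numbers of calls had been seen. An exact test of 2 against 2 libraries cannot go below p = 0.33 and was not used. Alternatives were a pseudocount of 1, a minimum mean of 10, equal totals, no trend, a replicate block and leaving out each library. Named were the 10 genes, genes opposite them, called clock-list genes and the 4 most counted of each clock list. Ccrn4l was read under its current symbol Noct. The exon overlaps come from GENCODE M21 and promoters from RefSeq.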

Additional observations from a re-analysis of the deposited data

How the results depend on the processing

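The minimum mean of 10 was the 1 setting that tested all 10 clock output genes, and it called 0. The others tested 0 for Ascl5Mut/Mut and 1, Dbp, for Ascl5Mut/WT, which was not called, so they say nothing of the other genes. The number of all genes called moved with the setting. For Ascl5Mut/Mut it was 20 as reported, 4 with a pseudocount of 1, 1 with a minimum mean of 10, 0 without an intensity trend (242 at an unadjusted p under 0.05) and 0 to 33 with 1 library left out, highest without Ascl5WT/WT replicate 2, 7 without replicate 1 and 0 without either Ascl5Mut/Mut library. For Ascl5Mut/WT it was 13 as reported, 8 with a pseudocount of 1, 0 without an intensity trend (190 at an unadjusted p under 0.05) and 0 to 34 with 1 library left out, highest without Ascl5WT/WT replicate 2, 20 without replicate 1 and 0 without either Ascl5Mut/WT library. Equal totals gave 14 in each comparison. With the replicate number as a block the counts were 36 and 37. Deviations of same-numbered libraries correlated at -0.013 for Ascl5Mut/Mut and 0.023 for Ascl5Mut/WT, so no shared effect of the replicate number was seen. With 2 libraries per group this does not settle whether samples were paired.

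With 1 library left out, an alternative chosen after seeing the data for counts and sums, the genes above both wild-type libraries numbered 4 to 7 for Ascl5Mut/Mut and 2 to 6 for Ascl5Mut/WT, and those below 1 to 3 and 0 to 1. The ratio of sums ran from 1.41 to 4.83 and from 2.02 to 7.07. With a pseudocount of 1, 6 of 10 differences for Ascl5Mut/Mut and 8 of 10 for Ascl5Mut/WT moved by more than the spread between replicates (Hlf to 9.86 and Per1 to 7.12 in Ascl5Mut/Mut, Per3 to -3.09 in Ascl5Mut/WT), and 0 changed sign. With equal totals 0 moved that far. With 1 library left out, 6 of 40 for Ascl5Mut/Mut and 9 of 40 for Ascl5Mut/WT changed sign or went to 0. Most values rest on 0 to 13 estimated reads, which limits every comparison here.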
